A study of Homo sapiens with 4 samples.

Results

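The interleukin-17 ligands and receptors are described here in HAP1, an established human cell line with a near-haploid genome, with and without MATR3. They were taken as all rows of the deposited table whose symbol starts with IL17, which gave 10 of 785 gene probes. Of these, 5 encode ligands (IL17A, IL17B, IL17C, IL17D and IL17F) and 5 encode receptor chains (IL17RA, IL17RB, IL17RC, IL17RD and IL17RE). Expression was read from total RNA with NanoString probes, each of which labels 1 transcript with a colour code that is tallied with no amplification step. The 4 samples were 2 wild-type lines, called WT #1 and WT #7 here, and 2 lines labelled MATR3 knockout, called KO #1 and KO #5, all of them untreated HAP1 cells in the same medium. The product of MATR3, matrin 3, is an RNA- and DNA-binding protein of the nuclear matrix. Each knockout line is 1 clone from a supplier, and the wild-type lines are batches of 1 catalogue item that the labels also call clones. A difference between the groups can therefore not be told apart from a difference between clones. The labels could not be checked by expression, since MATR3 is not among the 785 gene probes.

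Interleukin-17 cytokines are secreted dimers that signal through paired receptor chains. IL-17A and IL-17F, products of Th17 and related lymphocytes, bind a complex of IL-17RA and IL-17RC, and IL-17RA is also the shared chain for other members of the family. IL-17C acts through IL-17RE with IL-17RA, and IL-17B and IL-25 bind IL-17RB. IL-17RD is a less well understood chain that also restrains growth factor signalling. IL-17D is a ligand made mainly by cells outside the lymphocyte lineage, and its gene has been described as a target of the oxidative stress regulator NRF2. On target cells the receptors recruit the adaptor ACT1 and TRAF6, which leads to NF-kB, MAP kinases and the induction of chemokines.

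The deposited values were whole probe counts multiplied by 1 factor per sample, and are called normalised counts. Total gene counts ranged from 448610 to 571767. The 8 negative control probes, brought to the same scale, gave each sample a background limit (their mean plus 2 SD). The limit was 25.7 in WT #1, 21.1 in WT #7, 19.5 in KO #1 and 21.7 in KO #5. KO #5 stood apart from the others at low signal. Among 150 genes averaging 20 to 40 normalised counts, it had the lowest value for 106, or 70.7%, against 3.33% to 15.3% in the other samples. The median over these genes was 16.6 in KO #5 and between 24.5 and 31.7 in the other samples. Its negative control probes had a mean of 7.93 normalised counts, against 8.48 to 8.87 in the others. Among genes with a mean of at least 100, KO #5 had the lowest value for 17.1%. Differences of tested members at low signal are therefore given with and without that line.

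Above the background limit of all 4 samples were 5 of the 10 members, namely IL17A, IL17D, IL17RA, IL17RB and IL17RD. Among all 785 genes the same held for 49.6%. IL17B and IL17C were below the limit in every sample, a pattern that held for 25.4% of all genes, and IL17F, IL17RC and IL17RE were above it in 2 or 3 samples. Of the 40 values of the members, 27 exceeded their limit. By sample, 6 members were above the limit in WT #1, 7 in WT #7, 8 in KO #1 and 6 in KO #5. Probes differ in how well they capture their RNA, so the values of different genes are not compared with each other.

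**Figure D1:**
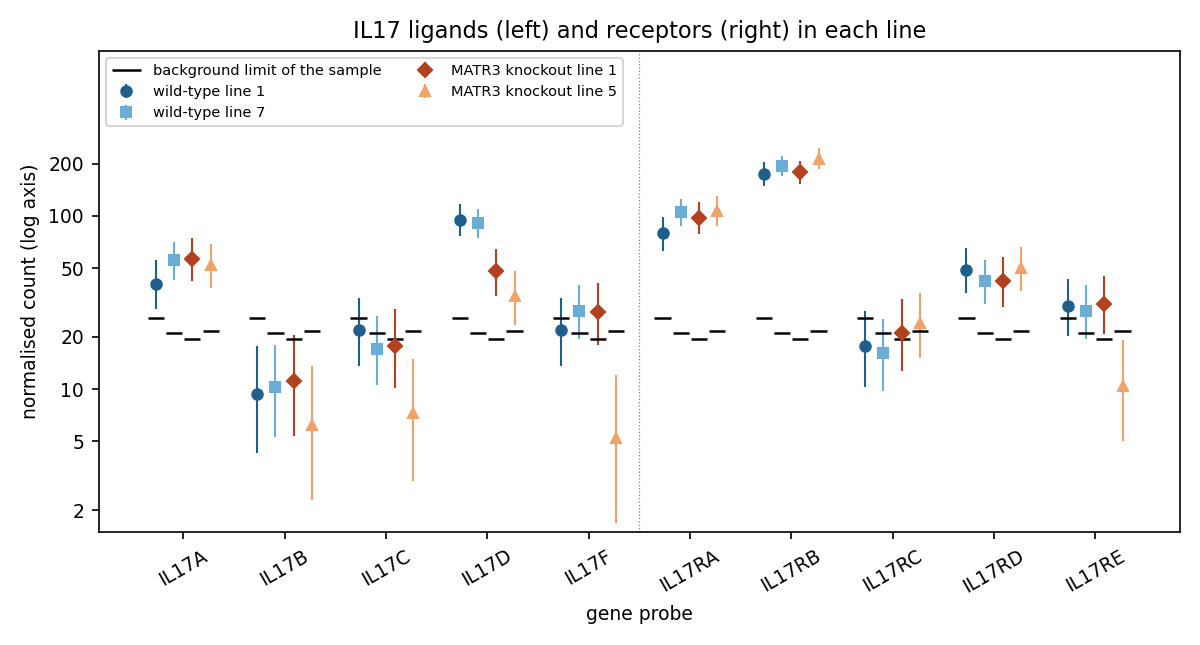
Normalised count (log axis) of the 10 IL17 probes in each of the 4 lines, with exact 95% Poisson intervals for counting error, and a short black line at each sample's background limit. IL17D is at 94.9 and 90.7 in the wild-type lines and at 47.9 and 34.3 in the knockout lines, while IL17F, IL17C and IL17RE have their lowest value in KO #5, at 5.20, 7.28 and 10.4; IL17C is below the limit in every sample and IL17F also in WT #1.

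Of the 10 members, 7 had a mean of at least 20 normalised counts and were tested, and IL17D was the only 1 of these to pass, lower in both knockout lines. It was at 94.9 normalised counts in WT #1 and 90.7 in WT #7. In the knockout it was at 47.9 in line 1 and 34.3 in line 5. The wild-type lines were close to each other and both knockout lines lay below them, so the groups did not overlap, as was so, with the knockout lower, for 30.7% of the 514 tested genes. All 4 values were above background, from 1.58 times the limit in KO #5 to 4.29 times in WT #7. These values rest on 91 and 106 counts in the wild type and on 43 and 33 in the knockout. The exact Poisson intervals, which cover counting error only, ran from 76.4 to 117 and from 74.3 to 109.7 in WT #1 and #7. In KO #1 and #5 they ran from 34.6 to 64.5 and from 23.6 to 48.2.

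The wild-type mean of IL17D was 92.8 ± 3.01 and the knockout mean 41.1 ± 9.55 (SD, n = 2 each), a ratio of 2.26. On the log2(value + 1) scale it fell by 1.17 (SE 0.25, 95% interval -1.72 to -0.62; limma adjusted p = 0.0139). In the same test, run on the 514 genes with a mean of at least 20, 8.17% were called at an adjusted p under 0.05, and 1.95% were called lower. IL17D had rank 24 of 514 by p-value and rank 11 from the lowest log2 difference. Within the 84 genes averaging 40 to 100 normalised counts, where the median log2 difference was -0.11, it ranked 5 from the lowest, and 7.14% of them were called lower. These values are from bulk RNA, in which fewer cells that express a gene and less RNA per cell cannot be told apart. The labels do not say that the lines of a group were separate cultures beyond their clone or batch. The p-values therefore cover no spread beyond that between these samples. In limma the error of each gene is also set partly from that of other genes.

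The measured decrease of IL17D was larger in KO #5 than in KO #1, but their Poisson intervals overlapped and the gap was not tested. Against the wild-type mean, IL17D differed by -0.94 on the log2 scale in KO #1 and by -1.41 in KO #5. The median of genes with a mean from 40 to 100 differed by -0.06 in KO #1 and by -0.21 in KO #5. Without KO #5 the log2 difference was -0.94 and the call was lost (limma adjusted p = 0.0574). Without KO #1 it was -1.41 (adjusted p = 0.00193). It was also not called by limma without the variance trend (adjusted p = 0.108) or by DESeq2 on the recovered counts (adjusted p = 0.0530). The quasi-likelihood test of edgeR on the same counts, which called 7.98% of genes, gave an adjusted p of 0.0156. Over the 18 settings of the comparison, the reported one included, the log2 difference of IL17D stayed between -1.41 and -0.94.

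**Figure D2:**
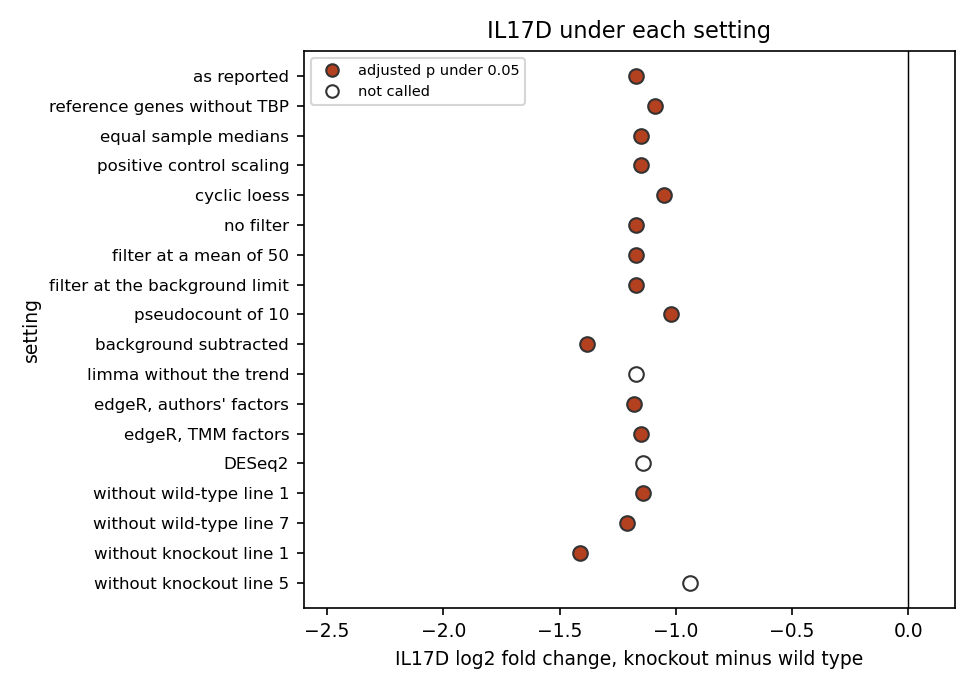
IL17D log2 difference, knockout minus wild type, under the reported setting and each of its 17 alternatives; filled points have an adjusted p under 0.05. All points lie between -1.41 and -0.94, and the open points are limma without the trend, DESeq2 and the fit without KO #5.

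NRF2, encoded by NFE2L2, acts on antioxidant response elements, for which the letters TGACNNNGC and their reverse complement were searched in the 250 bases before the transcript starts of the members. RefSeq (GRCh38.p14) lists 4 starts of IL17D, and a match lay before start 3, 176 bases upstream, and before start 4, 86 bases upstream. Both are shown, with the matched letters in capitals, because IL17D is the member that was called.
IL17D, start 3, chr13:20703513-20703541, plus strand: ggcgggcggaTGACGAGGCgcaggggcaa
IL17D, start 4, chr13:20715526-20715554, plus strand: cttacgttgtTGACTGTGCagccagaaat

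Such a match is common, as it was found before 3830 of 35116 starts of all genes, or 10.9%. Counted by gene, 3609 of 27305, or 13.2%, had a match before at least 1 start. Promoter windows were at hand for 8 of the 10 members, not for IL17C and IL17RA, and among their 14 starts 3 held a match, the other being 1 of IL17B. NFE2L2 was at 1007 and 1060.1 normalised counts in WT #1 and #7, and at 1377 and 1526 in KO #1 and #5. It was higher in both knockout lines, by 0.49 on the log2 scale (SE 0.08; limma adjusted p = 0.00375). Of its targets, HMOX1, which encodes heme oxygenase 1, was at 83.5 and 109 in the wild type and at 97.9 and 61.4 in the knockout (log2 difference -0.29, SE 0.25; adjusted p = 0.513). TXN, which encodes thioredoxin, had a log2 difference of -0.01 (SE 0.06; adjusted p = 0.958). Of the 16 genes listed for NRF2, these 3 were measured. The 1 that passed the test was NFE2L2 itself, and its targets HMOX1 and TXN did not pass. Of all tested genes 8.17% were called in either direction. The activity of the NRF2 protein was not tested.

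IL17A, the ligand that gave the family its name, was above background in all samples and did not pass the test. It was at 40.7 in WT #1, 55.6 in WT #7, 56.8 in KO #1 and 52.0 in KO #5. WT #1 was low and the other samples were close together, so the groups overlapped. Its wild-type mean was 48.1 ± 10.6 and its knockout mean 54.4 ± 3.34 (SD, n = 2 each). The log2 difference was 0.19 (SE 0.27, 95% interval -0.41 to 0.78; limma adjusted p = 0.682), and it was -0.033 without WT #1.

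IL17F, whose product pairs with IL-17A, is the nearest panel gene to IL17A on chromosome 6, with 1 listed gene between them. It was at 21.9 in WT #1, 28.2 in WT #7, 27.8 in KO #1 and 5.20 in KO #5. WT #7 and KO #1 were above their limit, and KO #5 was far below it, at 5 counts. The value in KO #5 exceeded 2 of the 8 negative control probes of that sample. The log2 difference of -0.95 (SE 0.65, 95% interval -2.38 to 0.48) did not pass (limma adjusted p = 0.448). It was 0.16 without KO #5 and -2.06 without KO #1, so its sign rested on 1 library.

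IL17C, an epithelial ligand, was at 21.9 and 17.1 in WT #1 and #7, 17.8 in KO #1 and 7.28 in KO #5. KO #5 was again the low sample, but each value was below its limit. IL17B was at 9.39 and 10.3 in the wild type and at 11.1 and 6.24 in KO #1 and #5, again under the limit in each sample. Both had a mean under 20 and were left out of the test. In a fit without that filter the log2 difference was -0.71 for IL17C (SE 0.49; limma adjusted p = 0.488) and -0.21 for IL17B (SE 0.52; adjusted p = 0.869). In that fit 4.97% of the 785 genes were called. IL25, which encodes the ligand also named IL-17E, does not match the IL17 prefix. It was at 16.7 and 23.1 in WT #1 and #7 and at 15.6 and 16.6 in KO #1 and #5, above the limit in WT #7 alone.

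**Figure D3:**
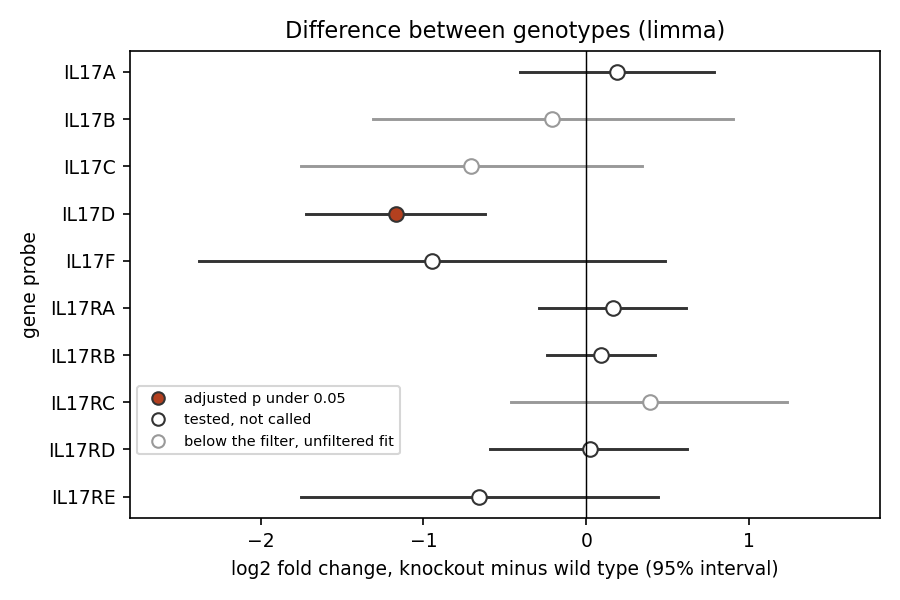
Log2 difference, knockout minus wild type, with its 95% interval from limma for each IL17 probe; grey marks the 3 probes with a mean under 20, taken from the fit without a filter. IL17D, at -1.17, has an interval below 0, and the intervals of the other 9 span 0.

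The receptor chains with clear signal did not differ between genotypes by more than their error. IL17RB, the receptor of IL-17B and IL-25, was at 175 and 194 in WT #1 and #7 and at 179 and 214 in KO #1 and #5. The groups overlapped, and the log2 difference was 0.09 (SE 0.15, 95% interval -0.24 to 0.42; limma adjusted p = 0.747). IL17RB was between 6.83 and 9.88 times its limit, the interval is the narrowest among the members, and it leaves out a change of the size seen for IL17D. IL17RA, the shared chain, was at 79.3 and 105 in WT #1 and #7 and at 97.9 and 107 in KO #1 and #5. WT #1 was the low sample, and the log2 difference was 0.16 (SE 0.20, 95% interval -0.29 to 0.61; adjusted p = 0.638).

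IL17RD was at 49.0 and 41.9 in WT #1 and #7 and at 42.3 and 49.95 in KO #1 and #5. Its values were interleaved between the groups, with a log2 difference of 0.02 (SE 0.27, 95% interval -0.59 to 0.62; limma adjusted p = 0.973). The difference between IL17D and the receptors was not tested itself. The log2 difference of IL17RA was -0.038 without WT #1, that of IL17RB was -0.042 without KO #5, and that of IL17RD was -0.091 without WT #7 and -0.098 without KO #5, so none of these signs is settled.

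IL17RE and IL17RC, which encode the partner chains for IL-17C and for IL-17A and IL-17F, are neighbours on chromosome 3 with no listed gene between them, and were near the limit. IL17RE was at 30.3 and 28.2 in WT #1 and #7, 31.2 in KO #1 and 10.4 in KO #5. The first 3 samples were above their limit and KO #5 was at 0.480 times its limit. A fall below the limit in KO #5 alone was seen for 5.22% of all genes. The log2 difference of IL17RE was -0.66 (SE 0.50, 95% interval -1.75 to 0.44; limma adjusted p = 0.460). It was 0.089 without KO #5 (adjusted p = 0.931) and -1.41 without KO #1 (adjusted p = 0.0127). The part of the low signal of KO #5 in the values of IL17C, IL17F and IL17RE was not tested.

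IL17RC was at 17.7 and 16.3 in WT #1 and #7 and at 21.1 and 23.9 in KO #1 and #5. Both knockout values lay above both wild-type values, as did those of 16.4% of all genes. The 4 values rest on 17, 19, 19 and 23 counts, and their Poisson intervals overlapped, from 10.3 to 28.4 in WT #1 and from 15.2 to 35.9 in KO #5. The knockout values were 1.08 and 1.10 times their limit and the wild-type values below theirs, a split seen for 0.255% of all genes. With the limit at the mean plus 3 SD, IL17RC exceeded it in no sample, and with the mean plus 1 SD it did so in all 4. In the fit without a filter its log2 difference was 0.39 (SE 0.40, 95% interval -0.46 to 1.23; limma adjusted p = 0.624). With a mean of 19.8, IL17RC was just under the filter at 20, and IL17F, with 20.8, was just above it.

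**Figure D4:**
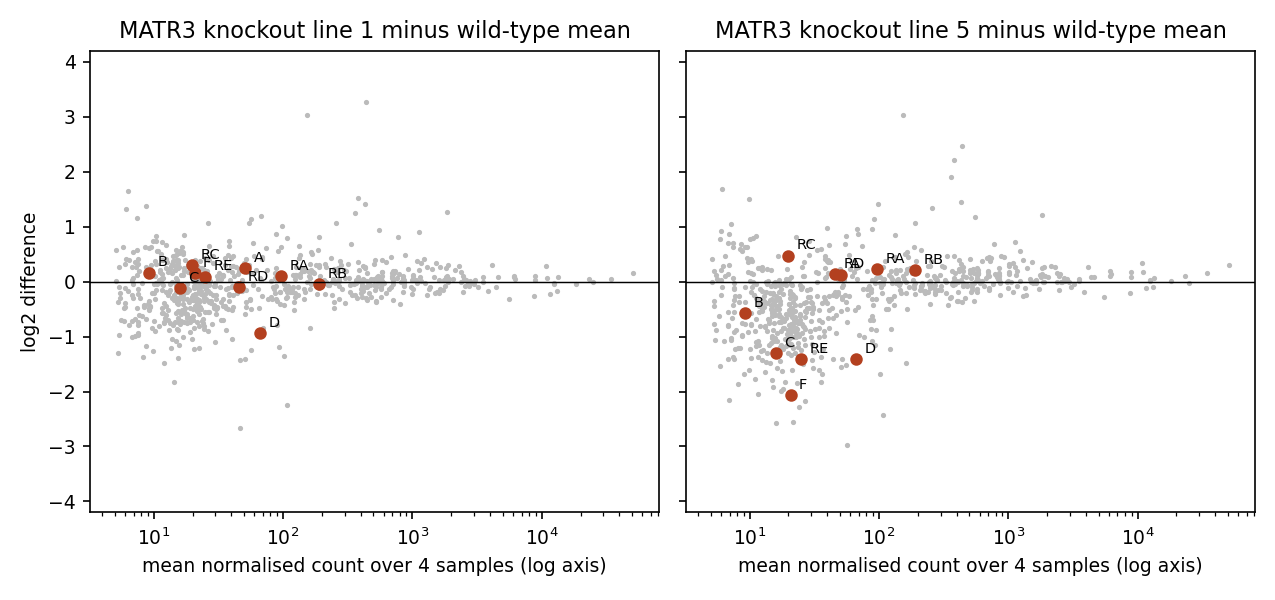
Log2 difference from the wild-type mean in KO #1 (left) and KO #5 (right) against the mean normalised count (log axis) of each gene with a mean of at least 5; IL17 probes are red, labelled by the letters after IL17. IL17D is low in both panels, at -0.94 and -1.41, while IL17C, IL17F and IL17RE are at -1.30, -2.06 and -1.41 in KO #5, where many grey points of low mean are also below 0, and between -0.12 and 0.16 in KO #1.

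Over the 10 members, KO #5 had the lowest value for 5, namely IL17B, IL17C, IL17D, IL17F and IL17RE, and the highest for 4, namely IL17RA, IL17RB, IL17RC and IL17RD. KO #1 was the lowest sample for 0 members. Of the 7 tested members 4 had a log2 difference above 0 and 3 below, with a median of 0.02, against a median of -0.04 over the 514 tested genes.

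The genes with the profile nearest to a member were found from the root mean square difference of their centred log2 values over the 4 samples, as a description. For IL17D they were GZMA (0.12), IFNK, IRAK3, ALPK1 and MDFIC (0.18 each). Of these, ALPK1, an alpha kinase, and MDFIC, a protein with a MyoD family inhibitor domain, were called lower in the knockout (limma adjusted p = 0.0298 and 0.00331). GZMA, IFNK and IRAK3 were lowest in KO #5, at 11.4, 11.4 and 12.5, below its limit of 21.7. ALPK1 was not called without WT #1 (adjusted p = 0.123), WT #7 (0.0502) or KO #5 (0.0864). For IL17A they were CX3CR1, TRIM22, MYD88, TRIM21 and C3, at 0.026 to 0.067. For IL17RA they were PANX1, PARP9, LIMK2, IL23A and CX3CR1, at 0.068 to 0.079. For IL17RD they were AKT2, TAP2, IFNAR1, ATM and RGMA, at 0.047 to 0.051. For IL17F the nearest were S100A12, HLA-DQA, FCGR1A/B, KIR3DL1/2 and IL5, and for IL17RE FCGR3A/B, IFIT2, KLRC1, CARD17 and MRC1. Each of these 10 genes had its lowest value in KO #5, between 7.28 and 19.8 normalised counts.

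On chromosome 13, where IL17D lies, the nearest other panel gene in gene order was HMGB1, which encodes a chromatin protein, with 225 genes between them. It had a log2 difference of 0.05 (SE 0.10; limma adjusted p = 0.814). The 4 tested genes of that chromosome besides IL17D ranged from -0.09 to 0.25, and 0 of them were called by limma, edgeR or DESeq2. Limma called 8.17% of all tested genes, so 0 calls among 4 genes say little about the chromosome. With limma 1 of them, SUGT1, the highest, had an unadjusted p under 0.05.

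Genes downstream of the receptors were taken from a list of 51 adaptors, kinases and transcription factors, of which 29 were measured and 26 tested. Of the 26, 4 rose, 0 fell and 22 did not pass, with a median log2 difference of 0.06. Of all tested genes 6.23% were called higher, but the 26 averaged 94.2 normalised counts or more. The 341 of 514 tested genes that averaged at least 50 held all calls, so the share called higher among them was above 6.23%. TAB2, an adaptor of the kinase TAK1, rose the most, from 357 and 364 normalised counts in WT #1 and #7 to 693 and 816 in KO #1 and #5. Its log2 difference was 1.06 (SE 0.11; limma adjusted p = 6.09e-05). The others were the kinases TBK1, at 0.41 (adjusted p = 0.0411), and MAP2K4, at 0.36 (adjusted p = 0.0325), and the chaperone HSP90AA1, at 0.23 (adjusted p = 0.0411). TAB2 kept its call without any 1 sample. Without KO #5 the adjusted p was 0.222 for TBK1, 0.126 for MAP2K4 and 0.274 for HSP90AA1. TBK1 and MAP2K4 were also not called without WT #7 (adjusted p = 0.132 and 0.0773), nor MAP2K4 without KO #1 (0.0621). With edgeR 4 genes of the list were called higher and with DESeq2 2, TBK1 and MAP2K4 being the genes lost there. Lower genes numbered 0 with edgeR and DESeq2 as well, and 2 had an unadjusted p under 0.05 with limma.

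TRAF6, the ubiquitin ligase recruited by the receptor complex, had a log2 difference of -0.11 (limma adjusted p = 0.614), and TRAF3 and TRAF2, regulators of the complex, had 0.13 and -0.22 (adjusted p = 0.549 and 0.308). MAP3K7, the kinase TAK1, had 0.13 (adjusted p = 0.478). The NF-kB subunits NFKB1 and RELA had -0.26 and 0.13 (adjusted p = 0.460 and 0.594). CEBPB, a transcription factor of IL-17 responses, had -0.21 (adjusted p = 0.403). Among the 26 tested genes the lowest value was that of JUN, an AP-1 subunit, at -0.65 (SE 0.22; adjusted p = 0.119), with 103 and 127 in the wild type and 85.7 and 61.4 in the knockout. JUN was called lower without WT #1 (adjusted p = 0.0427) and without KO #1 (0.0266). IKBKE, an NF-kB pathway kinase with a mean under 20, had -0.87 in the fit without a filter (SE 0.50; adjusted p = 0.408). SIGIRR, a receptor that dampens interleukin-1 family signalling, was from a separate list of 5 receptor partners. Of that list 2 genes were measured, and SIGIRR was the 1 gene tested. It rose from 781 and 695 to 1034 and 1012, a log2 difference of 0.47 (SE 0.09, limma adjusted p = 0.00724). Of all tested genes 6.23% were called higher.

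The genes listed as targets of the IL-17 family, the cytokine genes IL4, IL5 and IL13 among them, were mostly at or below background. Of 22 measured genes 2 were above the limit in all samples, CXCL3 and CCL2, and 8 in none. The summed signal of the 22 genes was 455 and 591 in WT #1 and #7 and 516 and 336 in KO #1 and #5. Of the 10 tested, 0 were called in either direction by limma, edgeR or DESeq2, 0 had an unadjusted p under 0.05, and the median log2 difference was -0.41. Over all tested genes limma called 8.17%, and each of these 42 genes averaged at least 50 normalised counts. The 0 calls are therefore not read as a result about the target genes. Of these 10 genes 8 averaged 20 to 40 normalised counts, with a median of -0.43, against -0.45 over all 150 tested genes of that level. Among the 10, CCL2, a monocyte chemokine, had the highest, with 54.2 and 67.6 in the wild type and 81.2 and 72.8 in the knockout (0.34, SE 0.23; limma adjusted p = 0.445). The lowest was IL5, at -0.91 (SE 0.46; adjusted p = 0.306), which was at 13.5 in KO #5 and between 41.2 and 49.6 in the other samples.

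CXCL2 and CCL20, chemokines for neutrophils and for Th17 cells, had log2 differences of -0.40 and -0.42 (limma adjusted p = 0.594 and 0.571). CXCL1 was below the limit in all samples, at 12.5 and 17.1 in the wild type and 5.56 and 4.16 in the knockout. It was not among the 10 tested, and had -1.43 in the fit without a filter (SE 0.52, limma unadjusted p = 0.0148, adjusted p = 0.164). CXCL8 and IL6 exceeded the limit in 1 sample each. Without KO #1, when KO #5 alone stood for the genotype, 2 of the 10 were called lower, IL5 (limma adjusted p = 0.00219) and PTGS2, which encodes cyclooxygenase 2 (adjusted p = 0.0473). PTGS2 was chosen for its value and was at 13.5 in KO #5 and between 25.0 and 39.4 in the other samples.

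**Figure D5:**
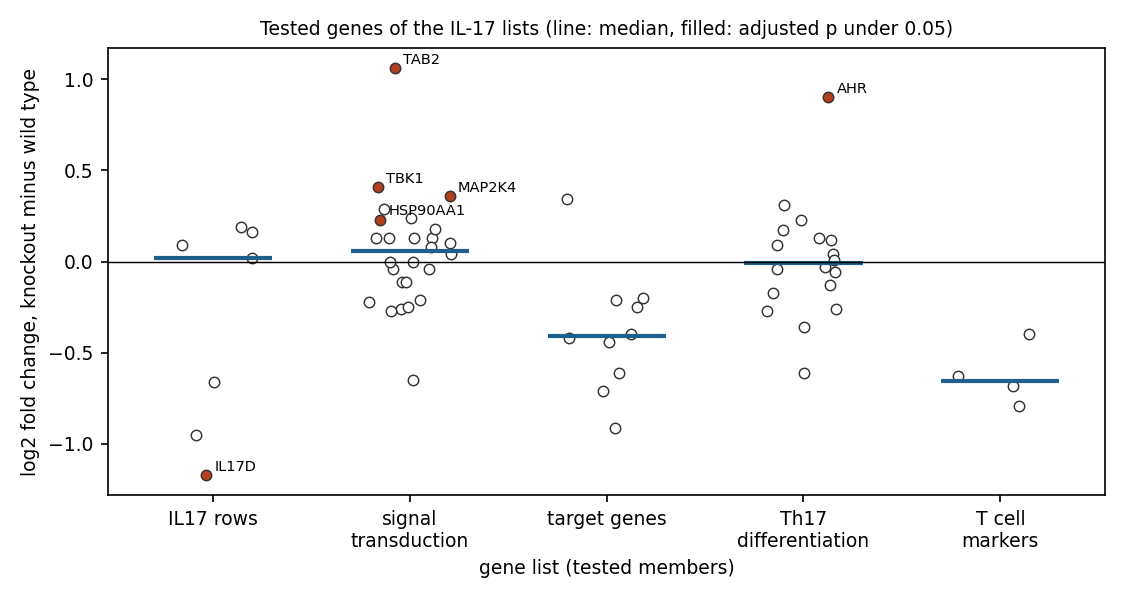
Log2 difference, knockout minus wild type, of the tested IL17 rows and of the tested genes in 4 lists; the blue line is the median of each, and filled points have a limma adjusted p under 0.05. IL17D is the called point among the IL17 rows, TAB2, TBK1, MAP2K4 and HSP90AA1 are called among the signal transduction genes and AHR among the Th17 genes.

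Genes that direct Th17 differentiation or belong to its cytokine circuits numbered 26 measured and 18 tested. Of the 18, 1 was called higher with limma, 1 with edgeR and 0 with DESeq2, a share near the 6.23% of all tested genes that limma called higher. Lower calls numbered 0 with limma, edgeR or DESeq2, with 1 unadjusted p under 0.05 in limma. The other 17 did not pass in limma, and the median log2 difference was -0.01. AHR, the aryl hydrocarbon receptor, was at 64.7 and 57.3 in WT #1 and #7 and at 111 and 119 in KO #1 and #5, a log2 difference of 0.90 (SE 0.20; limma adjusted p = 0.0170). It was not called by DESeq2, and without KO #5 its adjusted p was 0.0858. STAT3 had 0.17 (adjusted p = 0.382). IL23A, a subunit of interleukin-23, was at 41.7 and 53.0 in the wild type and at 47.9 and 48.9 in the knockout, with 0.04 (adjusted p = 0.945). IL23R, its receptor chain, had the lowest value among the 18 tested genes, at -0.61 (adjusted p = 0.460). IL6R, the interleukin-6 receptor, averaged under 20, was below the limit in all samples and had -1.18 in the fit without a filter (SE 0.51; adjusted p = 0.256). IL12B was below the limit in all samples.

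Markers of the lymphocytes that usually make IL-17A and IL-17F were near background. Of 8 T cell markers 0 were above the limit in all samples, and CD3D, CD3E, CD2 and CD8A were below it in each. The sum over the 8 markers was 123 and 175 normalised counts in WT #1 and #7 and 124 and 86.4 in KO #1 and #5. CD4, CD8B, CD28 and CD3G were above the limit in 2 or 3 samples, with log2 differences from -0.79 to -0.40 and a median of -0.66, beside the -0.45 of all tested genes averaging 20 to 40. Of these 4 tested genes 0 were called by limma, edgeR or DESeq2 or had an unadjusted p under 0.05. Limma called 8.17% of all tested genes, each averaging at least 50 normalised counts, and these 4 averaged 20 to 40. Their lack of calls is therefore not read as a result about T cell markers. PTPRC, the common leukocyte antigen CD45, was between 6.68 and 9.39 and below the limit throughout. Of the 7 other leukocyte markers CD14 (log2 difference -0.47, limma adjusted p = 0.460) and KLRK1 (-0.20, adjusted p = 0.653) were above the limit in all samples, the remaining 5 in none, and the sum ran from 110.3 to 156.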

How the data were processed

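NanoString signals of 785 gene probes, 8 negative and 6 positive control probes were analysed in 4 samples, 2 per genotype. The members and gene lists were chosen with earlier results of these data known. The signal values deposited by the authors were whole probe counts times 1 factor per sample (0.856 to 1.11), as the values themselves show: 100.0% of gene values were whole multiples within 0.006, apart from 4 values in WT #7 that stood at a floor of 1. Control probes were unscaled counts. The normalisation method is not given in the sources used here; the submitters' processing notes name R 4.1.1.

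Knockout was compared with wild type by limma 3.58.1 in R 4.3.3 (lmFit, eBayes with trend) on log2(value + 1), which understates changes of low genes, over 514 genes, those averaging at least 20 across samples. The threshold was a two-sided Benjamini-Hochberg adjusted p under 0.05. Recovered counts were tested with edgeR 4.0.16 and DESeq2 1.42.0. Named genes were the members, the called and extreme genes of each list, a fixed set of pathway genes and the 5 nearest profiles; CD markers, PTPRC, KLRK1, CXCL3, TXN, HMGB1, IKBKE and IL6R were named besides, the last pair after their values were seen. The fits were tested on simulated counts. The genes nearest in profile to IL17RB are not reported here.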

Additional observations from a re-analysis of the deposited data

How the results depend on the processing

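No paired analysis was possible because the sample numbers name clones or batches and do not link a wild-type line to a knockout line. The limit without the highest negative control probe was chosen after seeing the data, and the other alternatives with earlier results of these data known. IL17D kept its direction in 17 of 17 alternatives and its call in 14. It lost the call under limma without the trend (-1.17, adjusted p = 0.108), with DESeq2 (-1.14, 0.0530) and without KO #5 (-0.94, 0.0574). Leaving out single samples gave -1.41 to -0.94 for IL17D, -0.033 to 0.41 for IL17A, -2.06 to 0.16 for IL17F, -0.038 to 0.37 for IL17RA, -0.042 to 0.22 for IL17RB, -0.098 to 0.14 for IL17RD, where it was also -0.091 without WT #7, and -1.41 to 0.089 for IL17RE. Under the other alternatives 0 of the 7 tested members changed sign. Where a sample is left out, the lone sample of its group is assumed to vary like the other group.

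Over all genes, 42 were called, 32 higher and 10 lower. This was 69 with cyclic loess, 40 higher and 29 lower, and 4 under limma without the trend, 2 higher and 2 lower. With the reference genes without TBP 54 were higher and 8 lower, and lower calls were 5 with edgeR and TMM factors and 6 with DESeq2. Without single samples the total ran from 29 to 77, higher calls from 20 to 38 and lower calls from 9 to 47. Signal transduction genes called higher, 4 as reported, were 1 with positive control scaling, 2 with background subtracted, 2 with edgeR and TMM factors, 2 with DESeq2, 0 under limma without the trend and 1 to 4 without single samples. Called lower were 2 with cyclic loess and 0 to 1 without single samples. Th17 genes called higher, 1 as reported, were 2 with the reference genes without TBP, 0 with DESeq2 and under limma without the trend, and 0 to 1 without single samples. SIGIRR, the 1 tested gene of its list, and NFE2L2, the 1 call among 3 tested genes, were not called under limma without the trend. Without single samples, 0 to 2 target genes and 0 to 1 T cell markers were called lower. Of the 5 nearest profiles a filter at a mean of 50 kept 3 for IL17A, 2 for IL17D and 2 for IL17RA, and a pseudocount of 10 kept 3 for IL17F, 3 for IL17RD and 2 for IL17RE. The members above the limit in all samples, 5 as reported, were 5 or 6 under the other limits. The cause was not tested for any of these.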
